A study of Mus musculus with 16 samples.

Results

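Replication-dependent histone genes, which supply histones while DNA is copied, were read in RNA of Ba/F3 cells, a mouse pro-B cell line that depends on interleukin-3. The members were the genes of the deposited table with a symbol of the form H1f1 to H1f5, or H2ac, H2bc, H3c or H4c followed by a number. This rule found 63 genes of 25650, namely 5 H1 genes, 17 H2A genes, 17 H2B genes, 12 H3 genes and 12 H4 genes. A total of 53 lay on chromosome 13 between positions 21899933 and 24118834, a stretch of 2.22 Mb, and 10 lay on chromosome 3 between positions 96127181 and 96177448 (GRCm39). Both lines are Ba/F3 derivatives, 1 labelled BaF3-gp130:IL-6R wt (here gp130:IL-6R cells), for gp130 and the receptor of interleukin-6, and 1 labelled ChimP3V3:gp130Box1/2 (here ChimP3V3 cells). Both were sampled in medium and with 100 ng/ml of interleukin-6 (IL-6), which gave 4 groups of 4 libraries, 16 in all. How long IL-6 was present, the presence of interleukin-3 and whether a line was 1 clone or a pool are not stated in these sources. Nothing in the labels says that the 4 libraries of a group came from separate cultures, so the p-values measure only the spread between these libraries, which may be technical.

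Histone mRNAs of this kind are made mainly in S phase, when new DNA is packed, and are transcribed from clusters with the help of NPAT and CASP8AP2 at the histone locus body. Most do not end in a poly(A) tail: they end a few bases after a stem-loop that SLBP binds, at a cut set by the U7 particle with its subunits LSM10 and LSM11, and the exonuclease ERI1 trims that end. Several of these genes also have poly(A) signals farther downstream, and tailed forms of their mRNA are known from differentiating and resting cells. The libraries were made with the QuantSeq forward kit, which primes on oligo(A) stretches and reads the 3' end of polyadenylated RNA. The counts therefore hold tailed forms together with any transcripts primed at internal runs of A, tailed or not, and these cannot be told apart here.

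The stem-loop and the annotated end of each gene were read from the GENCODE M21 transcripts (GRCm38), because the distance between them bears on which transcripts an A-primed library can hold. The 16-base stem-loop held by the largest number of members, 24 of 63, was taken as the reference, and up to 2 mismatches were allowed. A match was present in 37 members, of which 24 had no mismatch, 6 had 1 and 7 had 2. In 26 members no annotated transcript held such a match, which says only that these letters are not in the annotated sequence. The following RNA-strand sequences are written in DNA letters, 5' to 3', with the stem-loop in capitals and up to 5 flanking bases on each side. The first 3 members rose under IL-6 in both lines and are annotated far beyond the stem-loop. H2ac24 and H2ac18 end close to it. Of these, H2ac18 was also called higher in both lines, and H2ac24 was called lower in gp130:IL-6R cells and higher in ChimP3V3 cells. H2bc12 and H3c3 fell in the gp130:IL-6R line. H4c4 shows the most divergent stem among these, is annotated far beyond it and was called in neither response.
H1f2: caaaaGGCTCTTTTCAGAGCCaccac
H2ac6: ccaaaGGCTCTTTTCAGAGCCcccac
H3c4: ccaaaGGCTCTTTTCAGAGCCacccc
H2ac24: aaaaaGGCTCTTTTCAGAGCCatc
H2ac18: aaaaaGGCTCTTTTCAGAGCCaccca
H2bc12: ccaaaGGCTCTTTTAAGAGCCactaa
H3c3: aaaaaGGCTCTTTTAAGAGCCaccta
H4c4: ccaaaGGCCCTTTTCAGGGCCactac

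The annotated transcript went on for 840 bases after the stem-loop in H1f2, for 2010 in H2ac6, for 752 in H3c4 and for 770 in H4c4. It ended 3 bases after the stem-loop in H2ac24, 35 bases after it in H2ac18, 30 in H2bc12 and 74 in H3c3. Of the 25 members that could be tested, 18 held a stem-loop in their longest transcript, and 10 of these were annotated for more than 100 bases beyond it. H1f3, H1f4 and H3c14 were annotated for 4884, 1153 and 1167 bases beyond it. H2bc4, H2bc21, H2bc24, H4c9 and H4c2, which enter the results below, had no match in any annotated transcript.

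Promoters of 3 members are shown, of which H1f2 and H2ac6 rose with IL-6 in both lines and H2ac24 fell in gp130:IL-6R cells. They were read from RefSeq (GRCm38.p6, 250 bases before to 50 after the annotated start), where 57 of the 63 members and 22 of the 25 tested had an entry. Capitals mark TATAAA (a core promoter box), CCAAT (bound by NF-Y), ATTTGCAT (the octamer, bound by OCT1) and AAACACA (known from H1 promoters), searched on both strands, so that some capitals show a motif's reverse complement. No member promoter held overlapping motifs.
H1f2 promoter, chr13:23738557-23738856, plus strand: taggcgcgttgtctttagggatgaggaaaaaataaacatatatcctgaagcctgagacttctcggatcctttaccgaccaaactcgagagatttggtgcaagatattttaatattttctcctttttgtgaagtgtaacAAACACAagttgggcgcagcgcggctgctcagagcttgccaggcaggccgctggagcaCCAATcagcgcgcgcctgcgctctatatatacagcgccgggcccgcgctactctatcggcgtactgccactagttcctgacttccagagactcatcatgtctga
H2ac6 promoter, chr13:23683910-23684209, minus strand: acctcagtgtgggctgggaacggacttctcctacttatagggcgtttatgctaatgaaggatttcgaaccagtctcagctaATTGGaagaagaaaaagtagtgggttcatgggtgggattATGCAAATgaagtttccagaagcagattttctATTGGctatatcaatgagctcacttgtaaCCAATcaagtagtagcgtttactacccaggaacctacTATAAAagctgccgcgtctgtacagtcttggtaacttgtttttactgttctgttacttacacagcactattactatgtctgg
H2ac24 promoter, chr13:21833426-21833725, minus strand: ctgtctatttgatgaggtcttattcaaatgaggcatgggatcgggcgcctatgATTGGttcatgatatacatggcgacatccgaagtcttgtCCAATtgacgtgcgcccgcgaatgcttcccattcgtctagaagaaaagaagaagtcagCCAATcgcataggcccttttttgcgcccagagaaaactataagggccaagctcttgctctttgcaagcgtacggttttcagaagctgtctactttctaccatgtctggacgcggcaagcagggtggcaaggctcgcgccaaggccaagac

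The H1f2 window held 1 CCAAT and 1 AAACACA, the H2ac6 window 1 TATAAA, 3 CCAAT and 1 ATTTGCAT, and the H2ac24 window 3 CCAAT. Of the 57 member windows, 86.0% held CCAAT, against 41.1% of the windows of all 27025 genes in the RefSeq table. It stood in 100% of the H1, H2A, H2B and H3 windows and in 27.3% of the H4 windows. TATAAA stood in 59.6% of member windows against 15.7% of all. The octamer stood in 50% of the H2B windows and 35.3% of the H2A windows, in 0 of the other classes, and in 1.97% of all genes. AAACACA stood in 80% of the H1 windows and in 8.22% of all. These are counts of letters and not of bound sites.

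Total counts per library ranged from 1275112 to 1650348, so that 3 counts, the upper limit that a count of 0 allows, correspond to 1.82 to 2.35 CPM (counts scaled to a common library size with TMM factors). This limit covers counting error only, since no molecular identifiers were named. Within groups, some pairs of libraries agreed within sampling noise by a chi-square test over genes, while others of the same group did not. Merging the most alike libraries of each group left 17 members called in the gp130:IL-6R response, 11 in the ChimP3V3 response and 5 in their difference. Of the pro-B and Ba/F3 marker list of 15 genes, Rag1 and Rag2 were at 0 in every library. The summed level of that list was 811 to 862 CPM in gp130:IL-6R cells in medium, 1006 to 1054 CPM under IL-6, 1247 to 1327 CPM in ChimP3V3 cells in medium and 1230 to 1340 CPM under IL-6. The summed erythroid list (7 genes) stood at 120 to 139 CPM, 58.5 to 60.3 CPM, 997 to 1125 CPM and 1877 to 1919 CPM in the same order, with Hbb-bs and Alas2 at 0 in all gp130:IL-6R libraries. The summed mast cell and basophil list (6 genes) stood at 568 to 635 CPM, 669 to 710 CPM, 423 to 451 CPM and 557 to 617 CPM. Their part in the results below was not tested.

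Only 25 of the 63 members passed the filter on low counts, and these held 96.3% of the 30917 member counts. H2ac24 and H1f2 alone held 57.6%. Tested members were all 5 H1 genes, 7 of 17 H2A genes, 6 of 17 H2B genes, 3 of 12 H3 genes and 4 of 12 H4 genes, with 21 on chromosome 13 and 4 on chromosome 3. The other 38 had at most 32 counts in a library, and 3 of them (H2ac10, H2ac13 and H2bc1) were at 0 throughout. Depth was a limit even among the tested members, since 9 had a median count of at least 10 in all 4 groups and 16 did not. A gene that passed the filter through the group where it was high is more likely to differ, so the counts that follow describe the 25 tested members and not the whole family.

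The share of all counts that fell on the 63 members was 0.134% to 0.139% in the gp130:IL-6R medium libraries and 0.166% to 0.173% in those with IL-6. In ChimP3V3 cells it was 0.0894% to 0.0938% in medium and 0.126% to 0.138% with IL-6. Within each line the IL-6 libraries were all above the medium libraries, and within each condition the ChimP3V3 libraries were all below the gp130:IL-6R libraries. In bulk RNA such a share cannot tell fewer expressing cells from less RNA per cell. By class, the summed H1 level was 323 ± 15.2 CPM in medium and 616 ± 10.4 CPM under IL-6 (mean ± SD over 4 libraries) in gp130:IL-6R cells, and 233 ± 7.94 and 486 ± 30.3 CPM in ChimP3V3 cells. The summed H2A level was 744 ± 25.9 CPM in medium and 661 ± 13.8 CPM under IL-6 in gp130:IL-6R cells, against 410 ± 14.3 and 486 ± 39.7 CPM in ChimP3V3 cells. H2B sums were 160 ± 9.09 and 263 ± 24.7 CPM in the first line and 137 ± 10.5 and 170 ± 13.7 CPM in the second. For H3 they were 70.5 ± 4.77 and 98.9 ± 13.1 CPM, and 51.1 ± 6.01 and 111 ± 12.0 CPM. For H4 they were 68.1 ± 7.02 and 78.7 ± 6.08 CPM, and 71.2 ± 9.87 and 88.8 ± 2.27 CPM. The mean sum was thus higher under IL-6 in every class and line except H2A in gp130:IL-6R cells, where it was lower. In gp130:IL-6R cells H2bc4 went from a mean of 34.3 to 172 CPM, H3c4 from 30.4 to 63.2 and H4c9 from 14.8 to 31.3. Each rise exceeded that of its class, so the other members of these classes summed lower under IL-6. H1f2, at 166 and 444 CPM, gave most of the H1 rise in that line. In ChimP3V3 cells H4c9, at 44.4 and 61.9 CPM, gave nearly all of the H4 rise. Without H1f2, H2bc4 or H3c4, the H1, H2B and H3 sums of ChimP3V3 cells were still higher under IL-6. These sums are descriptions with no test, because the members were chosen with earlier results known.

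**Figure D1:**
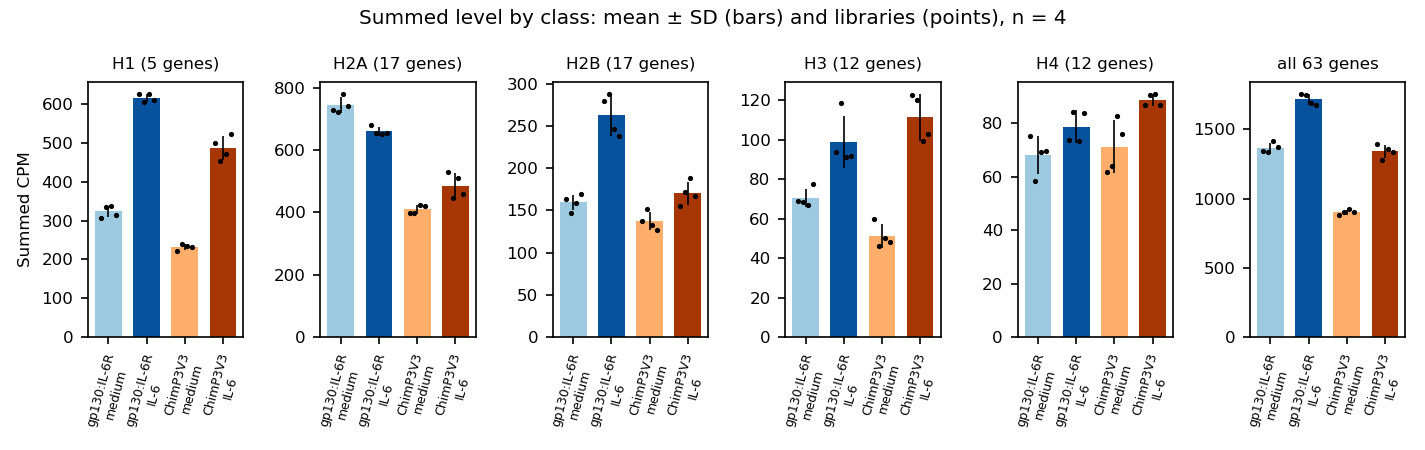
Summed level of the members by histone class, in CPM, with 1 point per library and a bar for the mean of each group of 4. The H1 sum lies near 323 CPM (medium) and 616 CPM (IL-6) in gp130:IL-6R cells, and the H2A sum near 744 and 661 CPM there, against 410 and 486 CPM in ChimP3V3 cells.

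The first comparison asked which histone transcripts differ between IL-6 and medium in gp130:IL-6R cells. Under IL-6 the tested members went both ways: 8 of the 25 tested members rose (H1f2, H1f3, H2ac6, H2ac18, H2bc4, H2bc24, H3c4 and H4c9), where 25.7% of the 9540 genes tested were called higher. A further 8 fell (H1f4, H2ac8, H2ac11, H2ac24, H2bc12, H2bc21, H3c3 and H4c2), where 24.3% of all genes were called lower. Calls were made with edgeR's quasi-likelihood test at a Benjamini-Hochberg adjusted p under 0.05 over all genes tested. The median log2 change of the tested members was 0.06, beside 0.01 for all genes tested. The 4 libraries of each condition did not overlap in 8 members that were higher and 6 that were lower, where 22.7% and 21.1% of all genes tested had such groups.

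In ChimP3V3 cells 10 members were called higher and 3 lower under IL-6, and the test of the difference between the lines is given further on. Those higher were H1f2, H1f3, H2ac6, H2ac18, H2ac24, H2bc4, H2bc24, H3c4, H3c14 and H4c9, where 16.2% of all genes tested were called higher. Those lower were H2ac11, H4c2 and H4c18, where 11.4% were called lower. The member median was 0.20 beside 0.03 for all genes tested. Groups did not overlap in 7 members that were higher and 1 that was lower, where 15.9% and 11.5% of all genes tested had such groups. The 8 members called higher in gp130:IL-6R cells (100% of that list) were among the 10 called higher in ChimP3V3 cells (80% of that list). The falls of H2ac11 and H4c2 were 25% of the first list of falls and 66.7% of the second. How far such lists overlap among all genes tested was not worked out, so these shares describe the members alone. H2ac24 was called lower in the first line and higher in the second. Of the 13 ChimP3V3 calls, DESeq2 kept 7, which were H1f2, H1f3, H2ac6, H2ac11, H2bc4, H3c4 and H4c9, and the count was 8 without ChimP3V3 IL-6 replicate 1.

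**Figure D2:**
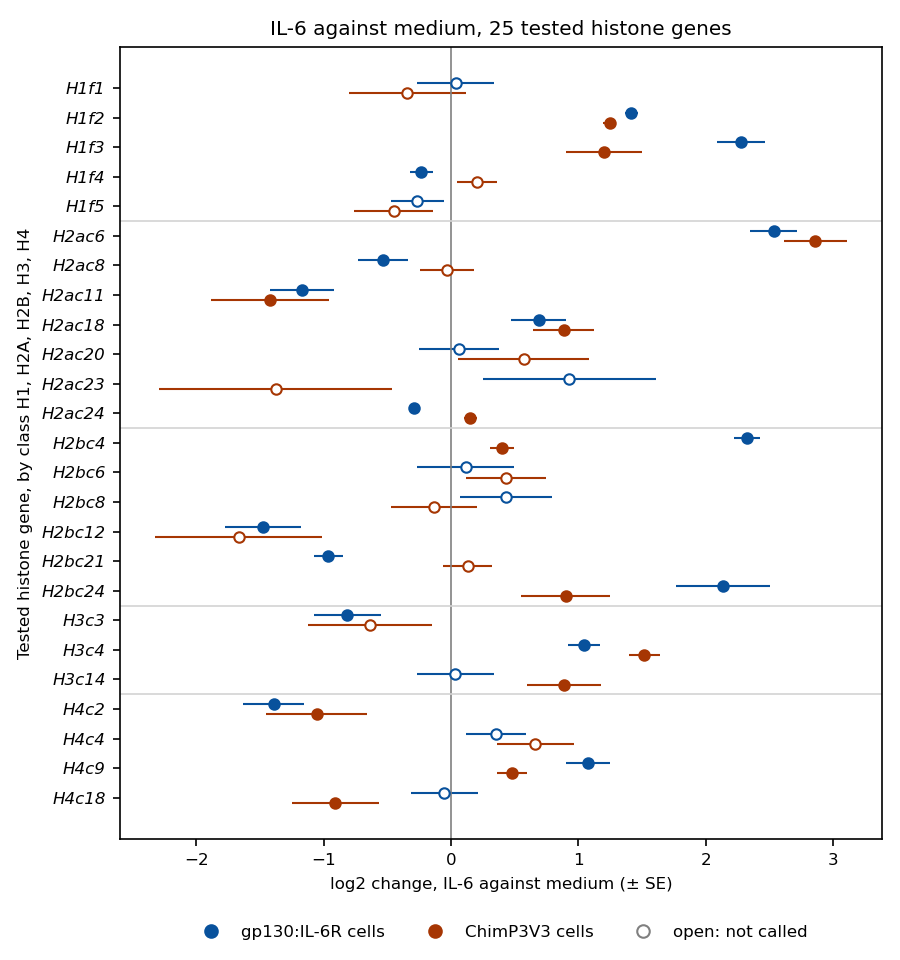
Log2 change with IL-6 of the 25 tested members in each line, with bars for a standard error (SE) derived from the edgeR F statistic. Filled points are calls. H2ac6 lies farthest to the right in both lines, at 2.53 and 2.86, and H2bc4 lies at 2.32 in gp130:IL-6R cells and at 0.40 in ChimP3V3 cells.

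H1 genes encode linker histones, which bind DNA where it enters and leaves the nucleosome. H1f2 (ENSMUSG00000036181, chr13:23922791-23924350, plus strand) stood at 165, 152, 176 and 172 CPM in the gp130:IL-6R libraries in medium and at 443, 464, 449 and 421 CPM under IL-6. In ChimP3V3 cells it stood at 163, 182, 186 and 179 CPM in medium and at 423, 401, 407 and 454 CPM under IL-6. Every IL-6 library was therefore above every medium library, and the 2 lines overlapped in each condition. The rise was 2.67-fold (log2 1.42, SE 0.05, adjusted p = 5.89e-25) in the first line and 2.37-fold (log2 1.25, SE 0.05, adjusted p = 1.94e-22) in the second, and the test of their difference gave -0.17 (SE 0.08, adjusted p = 0.0983). That difference passed under 5 alternatives: library totals (adjusted p = 0.0341), no filter (0.0391), and without gp130:IL-6R IL-6 replicate 4 or ChimP3V3 IL-6 replicate 1 or 4 (0.0162 to 0.0464).

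H1f3 (ENSMUSG00000052565, chr13:23737436-23744860, plus strand) stood at 7.00, 11.4, 7.13 and 11.8 CPM in medium and at 51.7, 43.1, 40.9 and 48.0 CPM under IL-6 in gp130:IL-6R cells. In ChimP3V3 cells it stood at 4.86, 3.85, 9.64 and 3.40 CPM in medium and at 14.5, 9.66, 14.7 and 11.3 CPM under IL-6. The IL-6 libraries of the first line were the highest of the 16, and the ChimP3V3 groups almost touched at 9.64 and 9.66 CPM. The rise was 4.85-fold (log2 2.28, SE 0.19, adjusted p = 1.68e-13) and 2.30-fold (log2 1.20, SE 0.30, adjusted p = 0.00184). The log2 responses differed by -1.08 (SE 0.39, adjusted p = 0.0369), and this call ended without ChimP3V3 medium replicate 3, where the difference was -0.66 (adjusted p = 0.32), in 5 other cases of 1 library left out, and with DESeq2. H1f4 (chr13:23804612-23806541, minus strand) stood at 111, 135, 128 and 105 CPM in medium and at 112, 76.1, 105 and 114 CPM under IL-6 in gp130:IL-6R cells. In ChimP3V3 cells it stood at 43.1, 39.1, 31.0 and 34.6 CPM, and at 50.6, 34.2, 40.3 and 45.0 CPM. Conditions overlapped within each line while the lines stood apart. The change of -0.23 in the first line (SE 0.09, adjusted p = 0.0309) was -0.13 without the library at 76.1 CPM (adjusted p = 0.21), and the call was also lost without medium replicate 2 or 3 (0.162 and 0.0769) and with DESeq2, limma or thinned counts. H1f4 overlaps H2bc6 on the same strand, so reads of the 2 cannot be told apart there.

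H2A genes encode a core histone of the nucleosome. H2ac6 (ENSMUSG00000069270, chr13:23865450-23867931, minus strand) stood at 5.73, 6.01, 7.13 and 8.54 CPM in medium and at 35.4, 44.5, 38.1 and 41.7 CPM under IL-6 in gp130:IL-6R cells. In ChimP3V3 cells it stood at 2.78, 2.56, 4.13 and 4.07 CPM in medium and at 26.7, 22.3, 27.9 and 23.3 CPM under IL-6. Conditions were far apart in both lines. The rise was 5.79-fold (log2 2.53, SE 0.19, adjusted p = 5.17e-15) and 7.27-fold (log2 2.86, SE 0.25, adjusted p = 4.46e-12), and the difference was 0.33 (adjusted p = 0.603). Ranked by log2 change, it was the 35th highest of all 9540 genes in the first line and the 8th highest in the second. It carries an internal run of 15 A, the longest among the tested members, and is annotated far beyond its stem-loop as printed above.

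H2ac24 (ENSMUSG00000094777, chr13:22017196-22017677, minus strand), was the member with the most counts. Its annotated end lies beside the stem-loop, with no poly(A) signal and a run of 12 A, and whether its reads came from tailed mRNA was not tested. It stood at 615, 621, 660 and 625 CPM in medium and at 526, 526, 515 and 491 CPM under IL-6 in gp130:IL-6R cells. It stood at 307, 338, 344 and 371 CPM and at 397, 350, 396 and 368 CPM in ChimP3V3 cells. The first pair of groups did not overlap and the second did. The level fell 1.23-fold in the first line (log2 -0.29, SE 0.04, adjusted p = 5.37e-08). The ChimP3V3 change was 0.15 (SE 0.05, adjusted p = 0.0205), a call lost under 12 alternatives. Of these, 6 left out 1 library: ChimP3V3 medium replicate 1, ChimP3V3 IL-6 replicate 1, 3 or 4, or gp130:IL-6R IL-6 replicate 1 or 4, with an adjusted p of up to 0.235. The responses differed by 0.44 (SE 0.06, adjusted p = 8.99e-07). H2ac24 shares 92.2% of its 100-base windows with H2ac23 and 68.7% with H2ac11, so its reads cannot be assigned with certainty. Merged with H2ac23, its level was 638 and 529 CPM in the first line and 350 and 381 CPM in the second. H2ac23 itself had 25, 11, 0 and 14 counts, then 33, 1, 0 and 58 in gp130:IL-6R cells, and 29, 0, 26 and 4, then 20, 0, 0 and 0 in ChimP3V3 cells, so that its counts vary between libraries of 1 group far more than those of H2ac24.

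H2ac11 (chr13:22226630-22227114, minus strand) stood at 24.8, 14.4, 24.2 and 23 CPM in medium and at 9.53, 6.46, 9.00 and 12.6 CPM under IL-6 in gp130:IL-6R cells. The ChimP3V3 libraries stood at 4.17, 9.62, 6.89 and 4.07 CPM and at 1.45, 1.49, 4.65 and 1.61 CPM. Medium lay above IL-6 in the first line and overlapped it in the second. The ChimP3V3 IL-6 libraries held 2, 2, 6 and 2 counts, near the limit set by 3 counts. The falls were 2.25-fold (log2 -1.17, SE 0.25, adjusted p = 0.000132) and 2.67-fold (log2 -1.42, SE 0.46, adjusted p = 0.0178), the latter lost without ChimP3V3 medium replicate 2 (adjusted p = 0.11), IL-6 replicate 1 (0.0568) or IL-6 replicate 2 (0.055). H2ac8 (chr13) was called lower in gp130:IL-6R cells at 24.8, 22.8, 29.9 and 24.3 against 17.0, 13.6, 24.9 and 14.5 CPM. These groups overlapped. Its change was -0.53 (SE 0.20, adjusted p = 0.0219) there and -0.03 (adjusted p = 0.939) in ChimP3V3 cells. The call was lost without gp130:IL-6R medium replicate 3, IL-6 replicate 2 or IL-6 replicate 4 (adjusted p 0.0724, 0.0744 and 0.0895), and with DESeq2 (0.0528).

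H2ac18 (chr3:96152813-96153398, plus strand) stood at 14.6, 36.7, 42.8 and 30.2 CPM in medium and at 53.8, 50.3, 51.3 and 44.2 CPM under IL-6 in gp130:IL-6R cells. The ChimP3V3 values were 33.4, 25, 24.8 and 17.7 CPM and 63.6, 54.3, 52.0 and 13.7 CPM. One medium library of the first line and one IL-6 library of the second stood far below the others of their group. In these libraries its copy H2ac19, which shares 88.1% of the windows, had 14 and 32 counts, while H2ac18 had 23 and 17. With the copies summed, the level was 33.3 ± 8.28 and 49.9 ± 4.06 CPM in the first line and 25.2 ± 6.42 and 52.3 ± 9.98 CPM in the second (n = 4). The change of H2ac18 alone was 0.69 (SE 0.22, adjusted p = 0.00796) and 0.89 (SE 0.24, adjusted p = 0.00433). Without gp130:IL-6R medium replicate 1 the first was 0.45 (adjusted p = 0.0759), and without ChimP3V3 IL-6 replicate 1 the second had an adjusted p of 0.0652. DESeq2 gave adjusted p of 0.16 and 0.123, and limma gave 0.0554 and 0.128. Merged with H2ac19 the changes were 0.59 (adjusted p = 0.000974) and 1.06 (adjusted p = 1.46e-06).

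H2B genes encode the partner of H2A, and several lie head to head with an H2A gene. H2bc4 (ENSMUSG00000018102, chr13:23868182-23876891, plus strand) stood at 40.1, 23.5, 36.4 and 37.4 CPM in medium and at 173, 189, 166 and 158 CPM under IL-6 in gp130:IL-6R cells. The ChimP3V3 libraries stood at 84.1, 95.5, 77.8 and 74.7 CPM and at 106, 103, 120 and 112 CPM. The order of the groups was gp130:IL-6R medium, ChimP3V3 medium, ChimP3V3 IL-6 and gp130:IL-6R IL-6, and neighbours in that order did not overlap. The rise was 5.01-fold (log2 2.32, SE 0.10, adjusted p = 1.75e-22) in the first line and 1.32-fold (log2 0.40, SE 0.09, adjusted p = 0.000755) in the second. The difference of -1.92 (SE 0.14, adjusted p = 3.92e-14) was the one with the smallest p among the members. H2bc4 differed between the lines in opposite directions by condition, at 1.29 in medium (adjusted p = 1.32e-12) and -0.64 under IL-6 (adjusted p = 1.96e-09).

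H2bc21 (ENSMUSG00000068854, chr3:96128435-96131054, plus strand) stood at 71.9, 74.6, 78.4 and 80.2 CPM in medium and at 46.3, 40.2, 32.6 and 37.3 CPM under IL-6 in gp130:IL-6R cells. The ChimP3V3 libraries stood at 19.5, 20.5, 13.8 and 21.7 CPM and at 15.2, 20.1, 29.5 and 18.5 CPM. The gp130:IL-6R groups were apart from each other and above every ChimP3V3 library, while the ChimP3V3 groups overlapped. The fall was 1.95-fold (log2 -0.96, SE 0.11, adjusted p = 2.78e-09) in the first line, the change in the second was 0.13 (SE 0.19, adjusted p = 0.67), and the responses differed by 1.09 (SE 0.23, adjusted p = 0.000281). No other member shares a 100-base window with it.

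H2bc24 (chr13:22017913-22021700, plus strand) stood at 1.91, 1.80, 7.13 and 2.63 CPM in medium and at 20.4, 9.34, 17.3 and 11.4 CPM under IL-6 in gp130:IL-6R cells. In ChimP3V3 cells it was 2.08, 7.05, 9.64 and 5.43 CPM, then 9.40, 13.4, 10.9 and 12.1 CPM. The first pair of groups was apart, and the second overlapped by 1 medium library. The changes were 2.14 (SE 0.37, adjusted p = 5.03e-06) and 0.90 (SE 0.35, adjusted p = 0.0497), the second lost under 16 alternatives, of which 12 left out 1 library (adjusted p up to 0.207, without ChimP3V3 medium replicate 1), including each of the 4 ChimP3V3 IL-6 libraries. H2bc24 shares 85.7% of its windows with H2bc23. H2bc12 (chr13:22220040-22220515, plus strand) stood at 21, 13.8, 10.7 and 19.1 CPM in medium and at 8.85, 5.03, 4.16 and 5.05 CPM under IL-6 in gp130:IL-6R cells, and at 2.08, 5.13, 3.44 and 2.04 CPM, then 0.723, 2.23, 0 and 0.804 CPM in ChimP3V3 cells. It fell 2.78-fold in the first line (log2 -1.48, SE 0.30, adjusted p = 7.06e-05). The ChimP3V3 estimate of -1.67 (SE 0.66) missed the threshold (adjusted p = 0.0541) at a level near the limit set by 3 counts. It passed under 7 alternatives, of which limma gave the lowest adjusted p (0.00903) and 4 left out 1 library, with -2.49 (adjusted p = 0.0209) without ChimP3V3 IL-6 replicate 2. It shares 62.1% of its windows with H2bc23 and with H2bc24.

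H3 and H4 genes encode the core histones that carry most of the studied tail marks. H3c4 (ENSMUSG00000099583, chr13:23759937-23761185, plus strand) stood at 30.5, 32.5, 25.7 and 32.9 CPM in medium and at 62.6, 75.4, 54.7 and 59.98 CPM under IL-6 in gp130:IL-6R cells. The ChimP3V3 libraries stood at 33.4, 23.7, 30.3 and 27.2 CPM and at 91.1, 88.5, 69.8 and 77.2 CPM. Conditions were apart in both lines, and the medium groups of the 2 lines overlapped. The rise was 2.06-fold (log2 1.04, SE 0.13, adjusted p = 3.25e-09) and 2.86-fold (log2 1.52, SE 0.12, adjusted p = 5.34e-13). Their difference was 0.47 (adjusted p = 0.0535), and it passed in 4 cases of 1 library left out (adjusted p from 0.0183, without gp130:IL-6R IL-6 replicate 2, to 0.0426). H3c14 (chr3:96154001-96155825, plus strand) stood at 9.55, 7.22, 3.57 and 10.5 against 6.13, 10.1, 6.23 and 9.47 CPM in gp130:IL-6R cells and at 5.56, 8.33, 6.89 and 6.11 against 10.8, 15.6, 10.9 and 12.9 CPM in ChimP3V3 cells. Only the ChimP3V3 groups were apart, with a change of 0.89 (SE 0.29, adjusted p = 0.0189). That of the first line was 0.04, and the difference of the responses, 0.85, missed the threshold (adjusted p = 0.144). Leaving out medium replicate 1 or IL-6 replicate 2 of ChimP3V3 cells ended the ChimP3V3 call (adjusted p = 0.0592 and 0.0987). DESeq2 (0.0731) and thinned counts (0.0951) ended it as well. H3c3 (chr13) stood at 10.8, 12.6, 19.3 and 19.1 against 7.49, 10.8, 9.00 and 7.58 CPM in gp130:IL-6R cells and at 4.86, 3.85, 2.07 and 4.75 against 3.61, 3.72, 1.55 and 0.804 CPM in ChimP3V3 cells. It fell by 0.81 on the log2 scale in the first line (SE 0.27, adjusted p = 0.00972), and the ChimP3V3 change was -0.64 (adjusted p = 0.366).

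H4c9 (ENSMUSG00000060639, chr13:22224806-22225532, minus strand) stood at 18.5, 9.62, 12.1 and 19.1 CPM in medium and at 31.3, 35.9, 27.0 and 30.9 CPM under IL-6 in gp130:IL-6R cells. The ChimP3V3 libraries stood at 41.0, 40.4, 47.5 and 48.9 CPM and at 62.9, 63.9, 60.5 and 60.3 CPM. The 4 groups formed 4 ranges without overlap, with both ChimP3V3 groups above both gp130:IL-6R groups. The rise was 2.11-fold (log2 1.08, SE 0.17, adjusted p = 1.25e-06) and 1.39-fold (log2 0.48, SE 0.12, adjusted p = 0.00128). Their difference of -0.60 (SE 0.21, adjusted p = 0.0322) was lost without gp130:IL-6R medium replicate 2 (adjusted p = 0.179), and also without replicate 3 of that group, IL-6 replicate 2 of that line or ChimP3V3 medium replicate 3 or 4 (adjusted p 0.0878, 0.0805, 0.0586 and 0.0658). DESeq2, limma and thinned counts gave adjusted p of 0.0864, 0.0528 and 0.0646 for that difference. H4c2 (chr13:23940996-23941392, plus strand) stood at 21.6, 18, 24.2 and 19.1 CPM against 4.77, 11.5, 6.93 and 8.21 CPM in gp130:IL-6R cells, and at 7.64, 6.41, 6.89 and 4.75 against 2.17, 2.23, 4.65 and 3.22 CPM in ChimP3V3 cells. Medium lay above IL-6 in both lines, although 4.75 and 4.65 CPM all but met in the second. H4c2 had 3, 3, 6 and 4 counts in the ChimP3V3 IL-6 libraries, near the limit set by 3 counts. It fell by 1.39 (SE 0.24, adjusted p = 5.23e-06) and by 1.06 (SE 0.39, adjusted p = 0.0403) on the log2 scale, the second lost under 9 alternatives, among them leaving out ChimP3V3 medium replicate 1, 2 or 3 or IL-6 replicate 1, 2 or 4 (adjusted p up to 0.103). H4c18 (chr13) stood at 7.64, 5.77, 10.3 and 9.51 against 2.17, 5.20, 6.21 and 4.02 CPM in ChimP3V3 cells, with a fall of 0.91 (SE 0.34, adjusted p = 0.0435) that was also lost under 9 alternatives, among them leaving out medium replicate 1, 3 or 4 or IL-6 replicate 1 or 4 of that line (adjusted p up to 0.157). H4c18 shares 80.7% of its windows with H4c17.

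**Figure D3:**
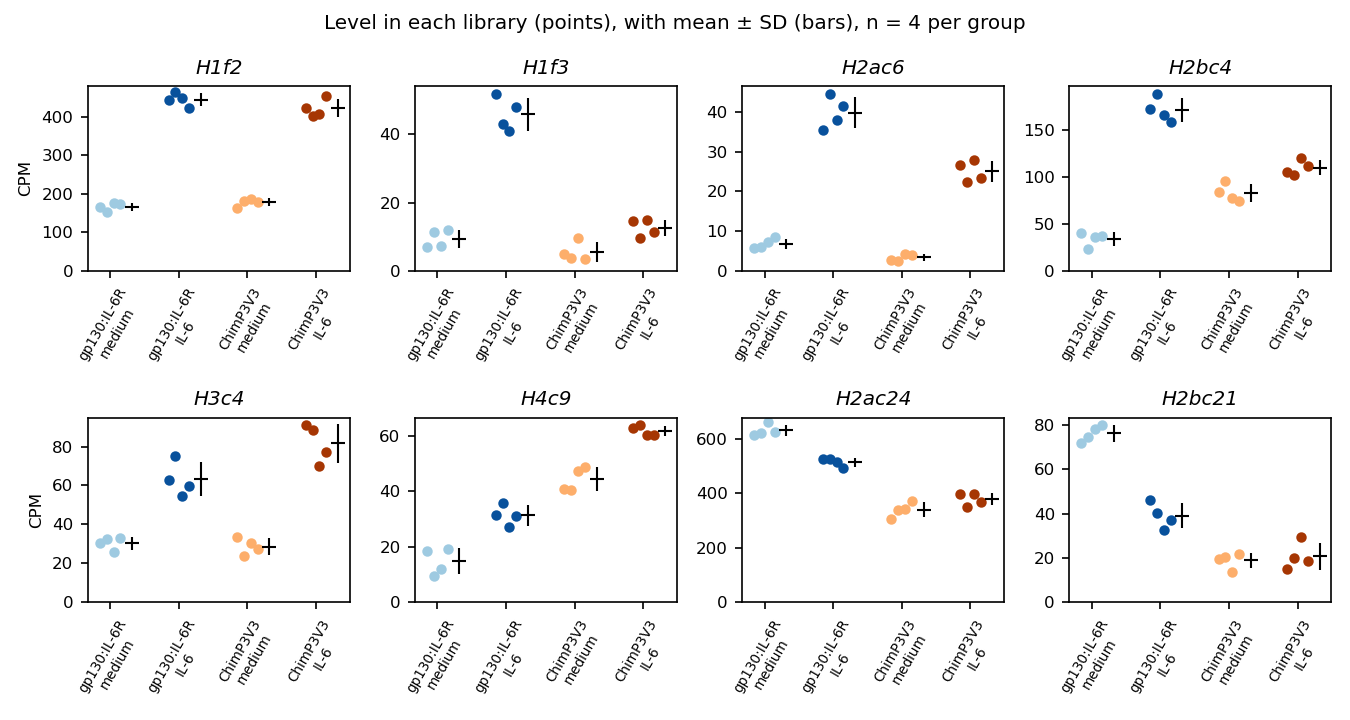
Level in CPM (linear axis) of 8 members in every library, by line and condition, with a bar for the mean ± SD of each group. H2bc4 spreads from 23.5 to 189 CPM over the 16 libraries, H1f2 overlaps between the lines in each condition, and H2ac24 and H2bc21 fall 1.23-fold and 1.95-fold in gp130:IL-6R cells.

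The tested members were then set beside the length of their longest annotated transcript. Among the 11 with more than 1000 bases, 6 rose and 2 fell in gp130:IL-6R cells (median log2 change 1.04), and 7 rose and 0 fell in ChimP3V3 cells (median 0.89). Among the 14 with up to 1000 bases, 2 rose and 6 fell in the first line (median -0.16), and 3 rose and 3 fell in the second (median -0.40). Of all genes tested, 25.7% rose and 24.3% fell in the first line, and 16.2% and 11.4% in the second. In ChimP3V3 cells DESeq2 did not keep the calls of H2bc24 and H3c14 among the long members. Nor did it keep those of H2ac18, H2ac24, H4c2 and H4c18 among the short ones. The lengths ran from 1138 to 7425 bases and from 397 to 743 bases, and H4c4, H2bc4 and H3c4, at 1138, 1156 and 1249 bases, lay nearest above the limit. The 2 long members that fell in gp130:IL-6R cells were H1f4 and H2bc21, and the 2 short ones that rose were H2ac18 and H4c9. The limit was chosen after the values were seen and no test was made. A poly(A) signal (AATAAA or ATTAAA) stood in the last 50 bases of an annotated transcript in 7 of the 25, of which 3 rose and 2 fell in the first line and 4 rose and 0 fell in the second. Of the 18 without one, 5 rose and 6 fell, and 6 rose and 3 fell. Long members without such a signal were H1f3, H1f4, H2ac6, H2bc4, H3c4 and H4c4. H2ac24 and H2ac23 carry a run of 12 A and H2bc6 a run of 11.

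**Figure D4:**
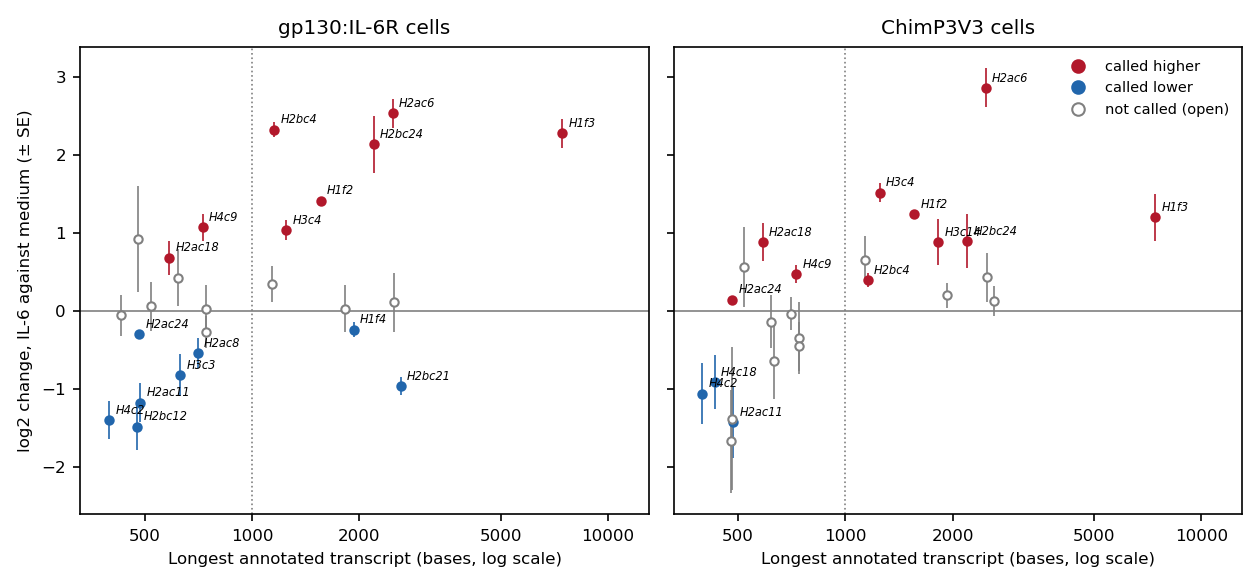
Length in bases of the longest annotated transcript (log axis) against the log2 change with IL-6 of the 25 tested members, 1 panel per line, with SE bars. In ChimP3V3 cells no member over 1000 bases was called lower, and in gp130:IL-6R cells H1f4 and H2bc21 were.

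A total of 13 pairs of members were divergent, with starts at most 1000 bases apart, and in 4 of them both partners were tested. H2ac6 and H2bc4, with starts 250 bases apart, both rose in gp130:IL-6R cells, by 2.53 and 2.32 on the log2 scale. In ChimP3V3 cells both also rose, but by 2.86 and 0.40. H2ac24 and H2bc24, 235 bases apart, went in opposite directions in the first line, at -0.29 and 2.14, and had 0.15 and 0.90 in the second. H2ac20 and H2bc21, 238 bases apart, had 0.06 and -0.96 in the first line and 0.57 and 0.13 in the second, where only the value of -0.96 was called. H2ac8 and H2bc8, 175 bases apart, had -0.53 and 0.43, then -0.03 and -0.13, where only the value of -0.53 was called.

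The 2 responses were compared by the interaction of line and IL-6. A total of 2 members were called higher in ChimP3V3 cells relative to gp130:IL-6R cells (H2ac24 and H2bc21), where 12.4% of all genes tested were called, and 3 were lower (H1f3, H2bc4 and H4c9), where 11.5% were called. The other 20 tested members were not called. The member median of the difference was 0.18, beside 0.02 for all genes tested. H2bc4, H2ac24 and H2bc21 were called by DESeq2 as well.

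**Figure D5:**
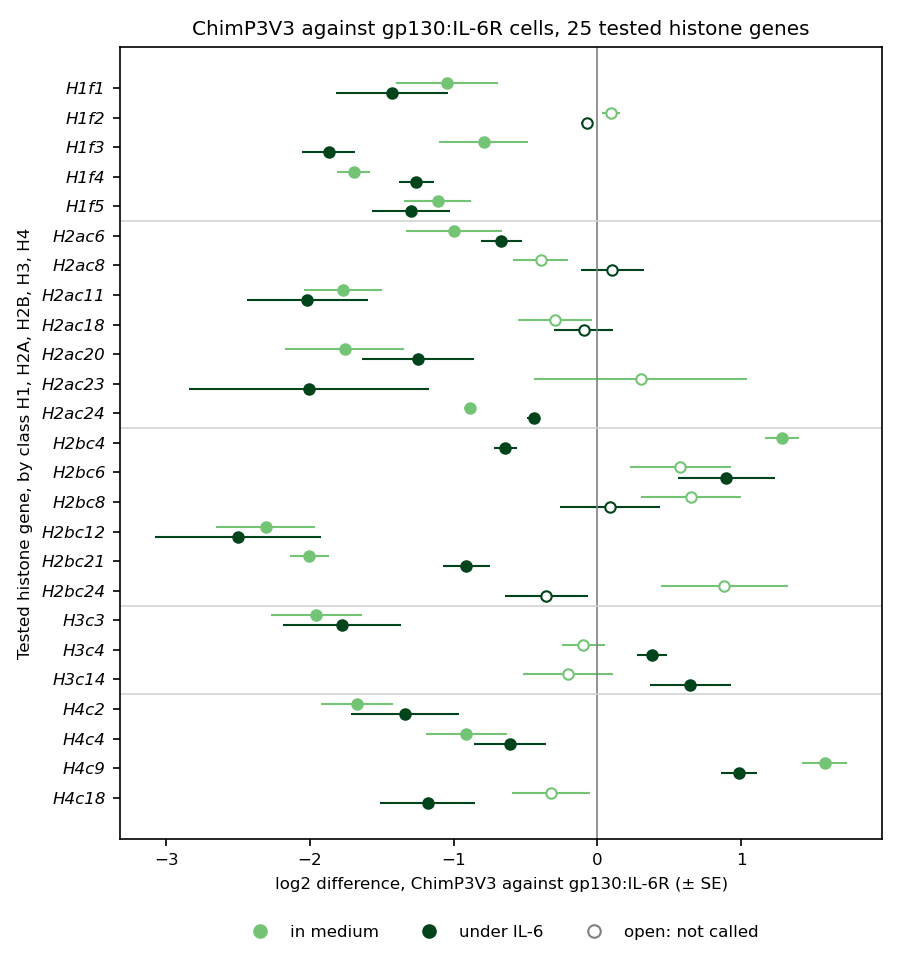
Log2 difference of ChimP3V3 against gp130:IL-6R cells for the 25 tested members, in medium and under IL-6, with SE bars and filled points for calls. H2bc4 and H4c9 lie above 0 in medium, and H2bc4 falls to -0.64 under IL-6.

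Between the lines in medium, most tested members were lower in ChimP3V3 cells: 13 were lower, where 33.4% of all genes tested were, and 2 were higher (H2bc4 and H4c9), where 31.7% were. The member median was -0.79, beside -0.00 for all genes tested. H2bc21 was 4.01-fold lower (log2 -2.01, SE 0.14, adjusted p = 1.43e-16). H1f4 was 3.24-fold lower (log2 -1.70, SE 0.12, adjusted p = 2.44e-16), with no overlap between the lines. H2ac24 was 1.85-fold lower (log2 -0.89, SE 0.04, adjusted p = 2.93e-21). H2bc12, H4c2 and H2ac11 were 4.95-fold, 3.19-fold and 3.41-fold lower, with adjusted p of 1.58e-07, 1.98e-07 and 3.73e-07. The remaining falls were in H1f1, H1f3, H1f5, H2ac6, H2ac20, H3c3 and H4c4, between 1.73-fold (H1f3) and 3.88-fold (H3c3). That of H1f1 ended as a call without gp130:IL-6R medium replicate 2 (adjusted p = 0.0553). That of H1f3 ended without replicate 2 or 4 of that group or without ChimP3V3 medium replicate 1, 2 or 4 (adjusted p up to 0.0885). It also ended with thinned counts (0.0922). H4c9 was 2.99-fold higher (log2 1.58, SE 0.16, adjusted p = 1.13e-11) and H2bc4 2.44-fold higher. H1f2, which responded in both lines, was at 0.10 in medium (adjusted p = 0.181) and -0.07 under IL-6 (adjusted p = 0.121), where the second passed under 5 alternatives (adjusted p down to 0.00637).

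Under IL-6 most tested members were again lower in ChimP3V3 cells, with 16 lower, where 31.6% of all genes tested were, and 4 higher (H2bc6, H3c4, H3c14 and H4c9), where 31.2% were. The member median was -0.67 beside 0.00. H1f3 was 3.65-fold lower (log2 -1.87, SE 0.18, adjusted p = 9.23e-12), H1f4 2.39-fold lower and H2ac24 1.36-fold lower. H2bc21 was 1.88-fold lower under IL-6, against 4.01-fold in medium. H4c9 was 1.98-fold higher (log2 0.99, SE 0.13, adjusted p = 6.69e-09) and H3c4 1.30-fold higher (log2 0.38, SE 0.10, adjusted p = 0.00156). The calls of H2bc6, H3c14, H4c4 and H2ac23 ended when single libraries of the IL-6 groups were left out, with adjusted p of up to 0.0859, 0.175, 0.079 and 0.353. They also ended with DESeq2 (adjusted p = 0.0716, 0.112, 0.0966 and 0.424).

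Genes that act with the histone genes were read from lists chosen with earlier results known. Their medians stand beside 0.01 and 0.03 for all genes tested in the 2 responses, and their counts beside the shares of calls given above. Of 45 DNA replication genes, all tested, 1 rose and 40 fell in gp130:IL-6R cells (median -0.55), and 2 rose and 36 fell in ChimP3V3 cells (median -0.40). Mcm2, a subunit of the replicative helicase, fell by 1.13 (SE 0.06, adjusted p = 1.25e-18) and by 0.51 (SE 0.07, adjusted p = 1.27e-07) as log2 values. Rrm1, a subunit of ribonucleotide reductase, fell by 0.86 (adjusted p = 3.03e-17) and by 0.55 (adjusted p = 3.28e-10). Of 24 mitosis genes, 24 fell in the first line (median -0.52) and 23 fell in the second (median -0.50), and 0 rose in either. Of the histone members, 8 rose and 8 fell in the first line and 10 rose and 3 fell in the second, in the same libraries.

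Of 25 histone chaperone genes, 17 fell and 2 rose in gp130:IL-6R cells (median -0.31), and 8 fell and 2 rose in ChimP3V3 cells (median -0.17). Asf1b, a chaperone of H3 and H4, fell by 0.78 (adjusted p = 3.96e-13) and by 0.66 (adjusted p = 1.32e-10), and Nasp, which binds the same pair and linker histones, fell by 0.57 (adjusted p = 1.10e-15) and by 0.52 (adjusted p = 3.37e-11). Of 23 tested factors for transcription, 3' end processing and decay of histone mRNA, 13 fell and 2 rose in the first line (median -0.27), and 8 fell and 1 rose in the second (median -0.11). Slbp changed by -0.08 (adjusted p = 0.219) and fell by 0.14 (adjusted p = 0.0368). Eri1 fell by 0.27 (adjusted p = 2.72e-06) and by 0.14 (adjusted p = 0.0258), and Casp8ap2 fell by 0.27 (adjusted p = 8.92e-05) and by 0.15 (adjusted p = 0.0332). The ChimP3V3 calls of Slbp, Eri1 and Casp8ap2 were lost with DESeq2 (adjusted p = 0.073, 0.0529 and 0.0753) and without ChimP3V3 medium replicate 2. Those of Slbp and Casp8ap2 were also lost without medium replicate 4 (0.125 and 0.144), and that of Slbp without IL-6 replicate 4 (0.0597). Npat was at -0.12 and -0.11, Lsm10 at 0.21 and 0.15 and Lsm11 at 0.09 and 0.28, none of them called in either response. Lsm11 was lower in ChimP3V3 than in gp130:IL-6R medium libraries (log2 -0.89, adjusted p = 5.36e-07). Zfp473 was not tested because of its low counts.

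Of 20 cleavage and polyadenylation factors of other mRNAs, 7 rose and 5 fell in gp130:IL-6R cells (median 0.06), and 3 rose and 2 fell in ChimP3V3 cells (median 0.05). Rbbp6, a subunit of the cleavage machinery, rose by 0.63 (adjusted p = 4.69e-14) and 0.26 (adjusted p = 5.10e-05). Pcf11, which links cleavage to termination, rose by 0.41 (adjusted p = 1.47e-05) and 0.27 (adjusted p = 0.000530). Of 10 tested replication-independent histone genes, most of whose mRNAs carry ordinary tails, 2 rose and 3 fell in the first line (median -0.06), and 3 rose and 3 fell in the second (median -0.05). H3f3a and H3f3b, which both encode H3.3, rose by 0.20 (adjusted p = 4.46e-06) and 0.34 (adjusted p = 5.53e-12) in the first line and by 0.18 (adjusted p = 4.35e-05) and 0.15 (adjusted p = 0.000641) in the second. Cenpa, the centromeric H3, fell by 0.37 (adjusted p = 2.01e-08) and by 0.49 (adjusted p = 1.36e-09). H1f0, a linker histone known from differentiated cells, fell by 0.12 (adjusted p = 0.00640) in gp130:IL-6R cells and rose by 0.57 (adjusted p = 3.22e-13) in ChimP3V3 cells, and the responses differed by 0.68 (SE 0.06, adjusted p = 2.34e-12).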

How the data were processed

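RNA of 16 Ba/F3 libraries was analysed from raw counts per gene, which the authors deposited for 25650 genes and made with CLC Genomics Workbench 23.0.4 on build GRCm39 with genes of Ensembl 107, per the file headers and the submitters' processing notes. Neither the strand setting nor the read filters are stated in the labels or headers, so counts of overlapping and near-identical genes are uncertain. The 48 deposited columns of normalized values per library were not used. Genes were kept with filterByExpr (minimum count 10, minimum total 15), which left 9540, and fitted to all libraries with edgeR 4.0.16 in R 4.3.3 (glmQLFit and glmQLFTest, TMM factors, 1 mean per group, 12 residual degrees of freedom, Benjamini-Hochberg over all genes tested, threshold 0.05), a procedure tested on simulated data. Adjusted p-values are from edgeR unless another tool is named, and n is 4 libraries per group. SE is the size of the log2 change divided by the square root of the F statistic, so it need not match the p-value exactly. Members with the smallest p per comparison and a mean CPM of at least 5 were given per library, with the member of highest mean in each class. H2bc24, H2ac24 and H4c18 in ChimP3V3 cells and the length groups were named after values were seen. The members and gene lists were chosen with earlier results of these data known. Alternatives were RLE factors, library totals, no filter, DESeq2 1.42.0, limma 3.58.1 on log2(CPM + 1), only the groups compared, a replicate block, thinning to 1275112 counts and each library left out. Merging near-identical copies and merging the most alike libraries were added after the data were seen. Transcript features came from GENCODE M21 and promoters from RefSeq, both on an earlier build, and no coordinates were converted. Results of some genes are not given.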

Additional observations from a re-analysis of the deposited data

Results flagged for a closer look

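Of 100 sets of 4 libraries (25 tested members in 4 groups), 3 held a library far from the other 3, and chance alone flags about 5% of such sets. H2ac11 stood at 4.65 CPM in ChimP3V3 IL-6 replicate 3, against 1.45 to 1.61 CPM in the others. H2ac23 stood at 14.5 CPM in ChimP3V3 IL-6 replicate 1, against 0 in the others. H2bc24 stood at 7.13 CPM in gp130:IL-6R medium replicate 3, against 1.80 to 2.63 CPM in the others. These values rest on 6, 20 and 10 counts, in genes that share most of their 100-base windows with another member.

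The response to IL-6 differed between the lines in 5 members by the interaction test in edgeR (ChimP3V3 minus gp130:IL-6R, log2 scale). The differences were -1.92 in H2bc4, 1.09 in H2bc21, 0.44 in H2ac24, -1.08 in H1f3 and -0.60 in H4c9.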

How the results depend on the processing

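Of 69 member values called in the 5 comparisons, 51 kept their call under every alternative, 18 lost it under at least 1 and 0 changed direction. Of 56 member values not called, 15 were called under at least 1. Of 213 calls of genes picked from the lists, by smallest p or for a role in histone RNA, 33 were lost under at least 1. Calls of the other list genes were not followed, so this share does not describe the lists as a whole. The ChimP3V3 response had 13 members called, 7 with DESeq2, and 8 to 13 with 1 library left out (8 without ChimP3V3 IL-6 replicate 1). The difference of the responses had 5 called, 8 with no filter, 3 with DESeq2, and 3 to 7 with 1 library left out (3 without ChimP3V3 medium replicate 3). Between the lines in medium 15 were called and 23 with no filter, since fewer genes were removed. The cause of the other shifts was not tested. Thinned counts gave 646 CPM for the H2A sum in gp130:IL-6R cells under IL-6, 86.3 CPM for H4 in ChimP3V3 cells under IL-6 and 924 CPM for all classes in ChimP3V3 cells in medium, where library totals gave 922 CPM. Same-numbered libraries did not deviate together (correlations from -0.08 to 0.12), so the numbers were not taken as pairs. With a replicate block 16, 12, 6, 16 and 20 members were called in the gp130:IL-6R response, the ChimP3V3 response, their difference, the lines in medium and the lines under IL-6. The block added the H3c4 difference of responses (adjusted p = 0.0476) and H2ac8 between the lines in medium (0.0356), and ended the H4c18 call in ChimP3V3 cells (0.0551). No scaling moved the median of all genes by 0.1 on the log2 scale. Depth limits members with a few counts per library, and 38 of 63 were not tested.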
